A study of Homo sapiens with 6 samples.

Results

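To investigate how Schlafen genes and other antiviral RNA decay factors responded to CELF6 over-expression, 8 genes were taken by symbol from the deposited gene tables: SLFN5, SLFN11, SLFN12, SLFN13, ISG20, PNPT1, ZC3HAV1 and N4BP1. Each symbol stood on 1 row among the 29889 genes listed, and 7 of the 8 genes had enough reads to be tested. Their identifiers are, in this order, ENSG00000166750.9, ENSG00000172716.16, ENSG00000172123.12, ENSG00000154760.13, ENSG00000172183.14, ENSG00000138035.14, ENSG00000105939.12 and ENSG00000102921.7. RNA was sequenced from A549 cells, a human lung adenocarcinoma line, 48 h after transient transfection with a pIRES-hrGFP-1a plasmid that carried CELF6 (CELF6-OE) or with the empty plasmid (Control). There were 3 biological replicates per group and 6 libraries in all. All 6 cultures received plasmid and transfection reagent, untransfected cells were not analysed here, and the promoter that drove CELF6 was not given in the sources used here. A549 is a single line, and the RNA came from whole cultures, so less RNA per cell and fewer cells with the RNA cannot be told apart.

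Members of the Schlafen family act on RNA or on transcription and are induced by interferon in many cell types. SLFN11 and SLFN13 act on transfer RNAs and restrict retroviruses, SLFN12 becomes a ribonuclease for transfer RNA when a phosphodiesterase partner binds it, and SLFN5 lacks the catalytic residues of its relatives and represses transcription in the nucleus. The other 4 genes are not Schlafens. ISG20 encodes an interferon-induced exonuclease for single-stranded RNA, ZC3HAV1 encodes the zinc-finger antiviral protein ZAP, which binds CpG-rich RNA and brings in the decay machinery, PNPT1 encodes the polynucleotide phosphorylase that degrades RNA inside mitochondria, and N4BP1 encodes an endoribonuclease that restrains cytokine production. Interferon acts on its target genes through promoter elements that include the interferon-stimulated response element (ISRE) and the gamma-activated site (GAS).

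The 4 Schlafen genes lie in 1 cluster on chromosome 17 of GRCh38 (GENCODE v44), spread over 205767 bases: SLFN5 on the plus strand (chr17:35243071-35273655), and SLFN11 (chr17:35350305-35373701), SLFN12 (chr17:35410922-35433283) and SLFN13 (chr17:35435096-35448837) on the minus strand. ISG20 lies on the plus strand at chr15:88635670-88656483, and PNPT1, ZC3HAV1 and N4BP1 lie on the minus strand at chr2:55634061-55693863, chr7:139043515-139132122 and chr16:48538726-48620148. RefSeq promoter windows of 300 bases (GRCh38.p14), which run from 250 bases before a RefSeq transcription start to 50 bases after it, were matched for 6 members: SLFN11, SLFN12, ISG20, PNPT1, ZC3HAV1 and N4BP1. The RefSeq start is 1 start per gene and is not the outer end of the GENCODE gene. It lies inside the GENCODE gene by 19 bases for PNPT1, 80 for SLFN11, 109 for SLFN12, 3346 for ISG20, 9968 for N4BP1 and 22402 for ZC3HAV1, and other starts of these genes were not searched. Of these, 1 window held the ISRE core GAAANNGAA, which was searched on both strands and stood in 8.11% of all 35116 windows of the same length. This was the window of ISG20. The GAS TTCNNNGAA reads the same on both strands, stood in 7.66% of all windows, and was found for SLFN11, PNPT1 and ZC3HAV1. No match of either motif was found for SLFN12 and N4BP1 in these windows. The windows with a match are shown on the strand of the gene, with the match in capitals. Of the genes with a match, 3 fell in CELF6-OE and SLFN11 did not pass the test, whereas N4BP1 fell without a match. A link between a match and a change was not tested. The windows are chr15:88638766-88639065 for ISG20 on the plus strand and, on the minus strand, chr2:55693795-55694094 for PNPT1, chr7:139109671-139109970 for ZC3HAV1 and chr17:35373572-35373871 for SLFN11.
ISG20: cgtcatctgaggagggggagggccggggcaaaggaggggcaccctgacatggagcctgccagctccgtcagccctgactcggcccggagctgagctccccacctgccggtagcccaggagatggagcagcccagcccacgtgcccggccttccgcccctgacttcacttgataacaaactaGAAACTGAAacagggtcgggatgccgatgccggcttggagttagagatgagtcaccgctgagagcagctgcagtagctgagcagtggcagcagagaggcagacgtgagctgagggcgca
PNPT1: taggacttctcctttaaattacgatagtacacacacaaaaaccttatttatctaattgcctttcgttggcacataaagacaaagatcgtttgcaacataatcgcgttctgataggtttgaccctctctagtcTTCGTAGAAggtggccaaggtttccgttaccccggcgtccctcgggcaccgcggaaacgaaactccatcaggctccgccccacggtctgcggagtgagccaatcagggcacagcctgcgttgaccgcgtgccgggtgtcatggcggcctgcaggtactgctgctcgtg
ZC3HAV1: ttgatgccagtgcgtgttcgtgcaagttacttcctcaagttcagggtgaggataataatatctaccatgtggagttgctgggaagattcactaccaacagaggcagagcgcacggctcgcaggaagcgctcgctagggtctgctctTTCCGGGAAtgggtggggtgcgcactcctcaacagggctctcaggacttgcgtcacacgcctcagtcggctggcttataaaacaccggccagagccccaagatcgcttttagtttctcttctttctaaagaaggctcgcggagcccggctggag
SLFN11: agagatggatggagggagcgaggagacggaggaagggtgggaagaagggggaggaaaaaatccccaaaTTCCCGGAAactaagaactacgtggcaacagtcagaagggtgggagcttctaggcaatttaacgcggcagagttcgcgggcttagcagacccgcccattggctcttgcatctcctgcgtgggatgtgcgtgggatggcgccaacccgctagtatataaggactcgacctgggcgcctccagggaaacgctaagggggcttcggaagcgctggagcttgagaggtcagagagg
In ISG20 the ISRE core GAAACTGAA covered bases -69 to -61 from the RefSeq start. Counted in the same way, the GAS matches were TTCGTAGAA at -118 to -110 in PNPT1, TTCCGGGAA at -104 to -96 in ZC3HAV1 and TTCCCGGAA at -182 to -174 in SLFN11. A match describes these letters only, and binding to them was not measured. Each pattern was searched with its exact spacing, so elements with another spacing were not counted. The PNPT1 window shown holds gaaacgaa, with a single base between GAAA and GAA, which was therefore neither counted nor marked.

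The over-expressed gene was checked first. In CELF6-OE replicates 1 to 3 the FPKM (fragments scaled by transcript length and by mapped fragments of the library, a level per length) of CELF6 was 270.09, 294.94 and 172.27, and every Control library had 0 counts. Since 0 counts leave room for as many as 3, which is an FPKM of 0.0435, CELF6 was at least 5640-fold higher. The CELF6 level of replicate 3 was 61% of the mean of replicates 1 and 2. The total count was between 33748328 and 35413404 in CELF6-OE and between 36422617 and 37920700 in Control. The epithelial markers KRT8, KRT18, KRT19, EPCAM and CDH1 were all present, and their summed FPKM ranged from 3340 to 4080 across CELF6-OE libraries and from 4650 to 5080 across Control libraries, and 4 of the 5 were lower in CELF6-OE in the test used here (EPCAM was not). Of 12 leukocyte markers 8 were among the genes listed, and 1 of these reached an FPKM of 1 (CD14). The summed FPKM of the 8 ranged from 4.13 to 5.45 across CELF6-OE libraries and from 4 to 4.59 across Control libraries. Of the 3 leukocyte markers with enough reads to be tested, ITGAM was lower in CELF6-OE, with a log2 fold change of -0.73 (adjusted p 0.0119 in edgeR's test) and a mean FPKM of 0.337 beside 0.55 in Control, and CD14 was not called. PTPRC, the defining marker of leukocytes, had at most 2 counts in a library, and CD3D, CD3E, CD2 and NKG7 were not among the genes listed. None of 6 fibroblast markers reached an FPKM of 1. The part of the epithelial markers in the results that follow was not tested.

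The level of the members differed widely in Control cells. ISG20 had the highest mean FPKM in Control, followed by PNPT1, ZC3HAV1, N4BP1, SLFN5, SLFN13, SLFN11 and SLFN12. Over the 3 Control libraries no neighbours in this order overlapped, other than SLFN13 and SLFN11. Among the tested genes, the mean FPKM of ISG20 stood above that of 95.1% of genes in Control and that of PNPT1 above 93.1%, whereas SLFN5 stood above 44.7%, SLFN13 above 24% and SLFN11 above 22.8%. In CELF6-OE the order changed at the top, where PNPT1 passed ISG20, with 43.58 to 53.09 against 16.91 to 28.5 FPKM and no overlap. SLFN11 and SLFN13 also changed places, but their values overlapped in each group.

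**Figure D1:**
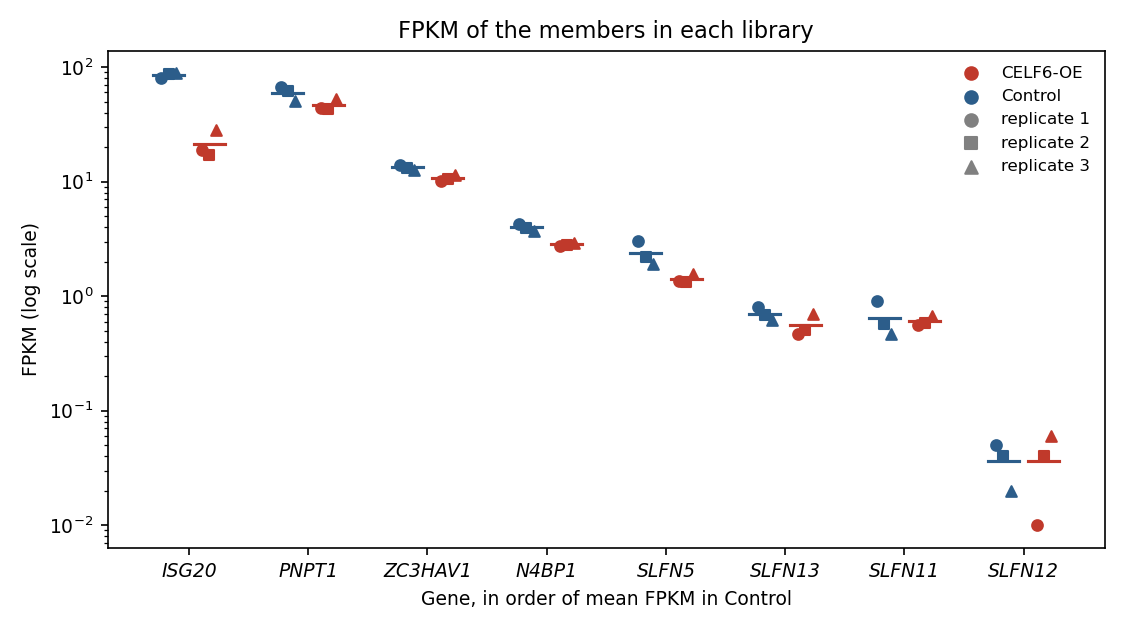
FPKM on a log scale of the 8 members in each of the 6 libraries, with genes in order of their mean FPKM in Control. Points are libraries, marker shapes are replicates 1 to 3, and short lines are group means. ISG20 drops from 85.3 to 21.4 and falls under PNPT1. The points of PNPT1, SLFN11, SLFN12 and SLFN13 overlap between groups.

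Of the 7 members tested, 5 were lower in CELF6-OE and 0 were higher at an adjusted p under 0.05 (quasi-likelihood test of edgeR, p adjusted by Benjamini-Hochberg over all 15847 genes tested). Over all of these genes, 11.5% were called lower, 6.47% were called higher and 18% were called in either direction. The 5 genes were ISG20, SLFN5, N4BP1, PNPT1 and ZC3HAV1. SLFN11 and SLFN13 did not pass the test. With a fold change of at least 1.5 required as well, 2 members (ISG20 and SLFN5) were called lower, against 5.82% of all genes, and 0 were called higher, against 1.35%. At an unadjusted p under 0.01 with the same fold change, the same 2 members were called, against 7.27% of all genes. The median log2 fold change was -0.392 over the 7 members and 0.0115 over all genes tested. For 4 of the 7 members (ISG20, SLFN5, N4BP1 and ZC3HAV1) the highest CELF6-OE library was under the lowest Control library, as it was for 20% of all genes. For 0 of the 7 did all 3 lie above, against 17.9% of all genes. With 3 libraries against 3, an exact permutation test of a single gene cannot give a p under 0.1.

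**Figure D2:**
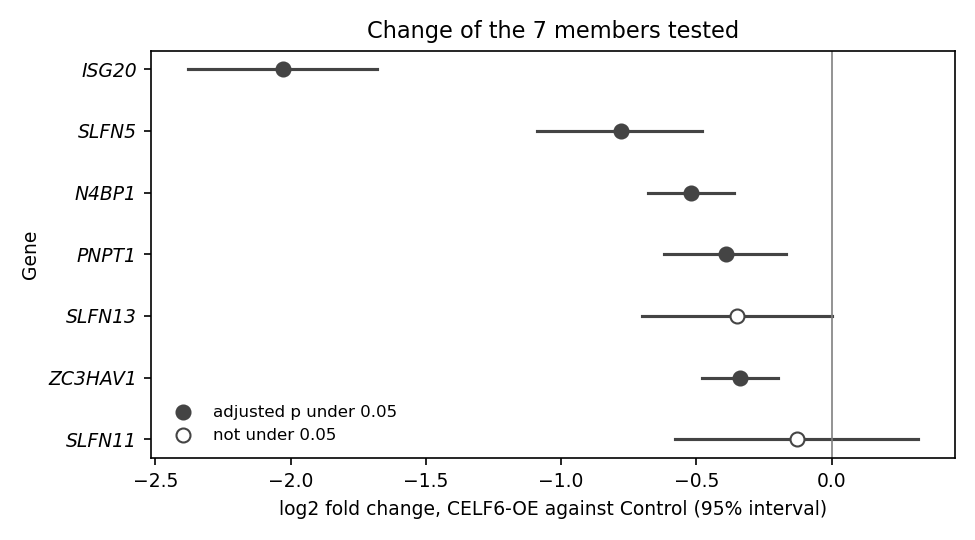
Log2 fold change of the 7 tested members in CELF6-OE against Control, from edgeR's quasi-likelihood fit, with 95% intervals as horizontal lines. Filled points have an adjusted p under 0.05. ISG20, at -2.03, stands apart from the other members, which lie between -0.78 and -0.13, and the interval of SLFN11 spans 0.

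ISG20, the interferon-induced exonuclease, had the largest change. In the order of their replicate numbers, the Control libraries had an FPKM of 80.84, 86.98 and 88.16, and the CELF6-OE libraries had 18.74, 16.91 and 28.5. The groups were far apart, and the highest CELF6-OE library, replicate 3, stayed under every Control library. The mean FPKM was 21.4 ± 6.23 in CELF6-OE and 85.3 ± 3.93 in Control (SD, n = 3 each). The log2 fold change was -2.03 (standard error 0.16), which placed ISG20 at 24.5% of its Control level, with an adjusted p of 1.96e-05 in edgeR's quasi-likelihood test. Among all genes with a lower level in CELF6-OE, 42 had a p as small or smaller, ISG20 included. The Control libraries were tight, with a coefficient of variation (SD over mean FPKM) of 4.61%, and the CELF6-OE libraries were spread, with 29.1%.

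The exonucleases that share the DEDD fold with ISG20 were examined next. Of the 9 genes in this list (AEN, ISG20L2, REXO1, REXO2, REXO4, ERI1, ERI2, ERI3 and PARN), 1 was lower, 0 were higher and 8 did not pass the test, and the median of their log2 fold changes was 0.12. The share called lower, 11.1%, was close to the 11.5% of all genes. The gene that fell was AEN, a nuclease induced by p53, with a log2 fold change of -0.21 (standard error 0.064, adjusted p 0.0411 in edgeR's test). AEN ends 3389 bases before ISG20 on the same strand of chromosome 15. ISG20L2, a nucleolar paralog of ISG20, had an FPKM of 18.7 ± 1.11 in CELF6-OE and 16.3 ± 0.497 in Control and a log2 fold change of 0.16 (adjusted p 0.127 in edgeR's test).

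SLFN5 was the 1 Schlafen gene that passed the test. Its FPKM was 1.36, 1.32 and 1.55 in CELF6-OE and 3.04, 2.21 and 1.9 in Control, from 524 to 585 counts per CELF6-OE library and 801 to 1232 per Control library. The CELF6-OE libraries were close together and all lay under the lowest Control library, replicate 3, whereas Control replicate 1 stood well above the other two. On the log2 scale SLFN5 fell by 0.78 (standard error 0.14), to 58.2% of the Control level, with an adjusted p of 0.00293 in edgeR's quasi-likelihood test. On the log2(FPKM + 1) scale, which understates changes of genes at this level, the difference was -0.48 and still passed the test.

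SLFN13, which cleaves transfer RNA and ribosomal RNA, had an FPKM of 0.47, 0.51 and 0.7 in CELF6-OE and 0.8, 0.68 and 0.62 in Control. CELF6-OE replicate 3 lay within the Control range and the other two CELF6-OE libraries lay under it. The log2 fold change was -0.35 with a 95% interval from -0.7 to 0 (adjusted p 0.153 in edgeR's test). Without CELF6-OE replicate 3 it was -0.55 and passed the test, with an adjusted p of 0.032.

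SLFN11, the Schlafen gene best known for making cells sensitive to DNA-damaging drugs, had an FPKM of 0.56, 0.58 and 0.67 in CELF6-OE and 0.9, 0.57 and 0.47 in Control. The Control range enclosed all 3 CELF6-OE libraries. The log2 fold change was -0.13 with a 95% interval from -0.58 to 0.32 (adjusted p 0.698 in edgeR's test), and it turned to 0.14 without Control replicate 1. The Control libraries held 175, 116 and 96 counts, and their coefficient of variation of 34.8% was larger than the 8.8% that counting error alone gives at their mean count. This interval overlaps that of SLFN5, which ran from -1.09 to -0.48.

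SLFN12 was at the edge of detection. The CELF6-OE libraries held 1, 4 and 6 reads and the Control libraries 5, 4 and 2, a sum of 11 in each group, for which the exact Poisson 95% interval is 5.49 to 19.7 counts (counting error only). No difference was detectable at this depth. Of the other Schlafen genes, SLFN12L and SLFNL1 had at most 2 counts in any library and were not tested. SLFN14 was not among the genes listed. The Schlafen genes are similar in sequence and only reads with a unique location were counted, so reads shared between them are missing from these values.

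Whether SLFN5 changed differently from its relatives was tested by the log2 ratio of 2 genes within each library. The ratio of SLFN5 to SLFN11 was 0.68 lower in CELF6-OE on the log2 scale, and the ratio of SLFN5 to SLFN13 was 0.4 lower. The groups did not overlap for either ratio. The exact permutation p was 0.1 for each, the smallest possible with 3 against 3 libraries, and 0.15 adjusted over the 3 Schlafen pairs. For SLFN13 and SLFN11 the ratios overlapped between groups (exact permutation p = 0.2). These pairs were chosen after their values had been seen.

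ZC3HAV1, which encodes ZAP, fell by a small and even amount. Its FPKM was 10.19, 10.58 and 11.4 in CELF6-OE and 14.04, 13.25 and 12.67 in Control. The groups did not overlap. The log2 fold change was -0.34 (standard error 0.063), or 78.9% of the Control level, with an adjusted p of 0.00388 in edgeR's quasi-likelihood test. The gene gives rise to a long and a short form of ZAP, which gene counts cannot separate. ZC3HAV1 and N4BP1 also overlap other annotated genes, N4BP1 on the opposite strand, and the strand setting of the counting is not given. Among the genes of proteins that work with ZAP, TRIM25, a ubiquitin ligase needed by ZAP, had a log2 fold change of -0.13 (adjusted p 0.168), and KHNYN, a ribonuclease that acts with ZAP, had -0.17 (adjusted p 0.113 in edgeR's test). DDX17, an RNA helicase, rose by 0.24 (adjusted p 0.0207 in edgeR's test). Of the 5 genes in this list, 0 were lower, 1 was higher and 4 were not called. Over all genes tested, 11.5% were called lower and 6.47% higher. Differences between the 5 genes were not tested.

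N4BP1 had the lowest coefficient of variation of the tested members in CELF6-OE. Its FPKM was 2.76, 2.81 and 2.91 in CELF6-OE and 4.25, 3.95 and 3.74 in Control. The CELF6-OE libraries had a coefficient of variation of 2.7%, below the 3.71% that counting error alone gives at their mean count, and lay clearly under the Control libraries. On the log2 scale N4BP1 fell by 0.52 (standard error 0.072), to 69.7% of the Control level, with an adjusted p of 0.000629 in edgeR's quasi-likelihood test. Of the 6 ribonucleases with a related NYN or PIN domain, 5 were tested. Beside 11.5% of all genes tested, 1 of these 5 was lower. It was ZC3H12A, which encodes Regnase-1, a ribonuclease that degrades cytokine mRNAs, at an FPKM of 18.9 ± 0.225 in CELF6-OE and 24.2 ± 0.931 in Control and a log2 fold change of -0.39 (adjusted p 0.00268 in edgeR's test). KHNYN, NYNRIN, ZC3H12C and ZC3H12D were not called, and ZC3H12B was not among the genes listed.

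PNPT1, the mitochondrial RNA-degrading enzyme, was the called member with overlapping groups. Its FPKM was 43.58, 42.73 and 53.09 in CELF6-OE and 67.35, 61.63 and 50.61 in Control. CELF6-OE replicate 3 lay above Control replicate 3. On the log2 scale PNPT1 fell by 0.39 (standard error 0.1), to 76.2% of the Control level, with an adjusted p of 0.0226 in edgeR's quasi-likelihood test. This call was lost with library sizes alone in place of TMM scaling (adjusted p 0.0547 in edgeR's test) and when CELF6-OE replicate 1, CELF6-OE replicate 2 or Control replicate 2 was left out (0.0999, 0.105 and 0.0993). Of 12 genes for mitochondrial RNA decay and processing, among them SUPV3L1, the helicase partner of PNPT1, and REXO2, which digests its short products, 0 were called, beside 18% of all genes in either direction, and their log2 fold changes lay between -0.02 and 0.24. SUPV3L1 had 0.12 (adjusted p 0.232) and REXO2 had 0.14 (adjusted p 0.163 in edgeR's test).

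The order of the members by their change was ISG20, SLFN5, N4BP1, PNPT1, SLFN13, ZC3HAV1 and SLFN11. Of the 6 pairs of neighbours in this order, ISG20 and SLFN5 alone had within-library ratios that did not overlap between groups, with a difference of -1.3 on the log2 scale (exact permutation p = 0.1, or 0.6 adjusted over the 6 pairs). For the other 5 pairs the ratios overlapped. The pairs came from the order of these same values, and the exact p cannot fall under 0.1 here. The test could therefore not separate any pair at an adjusted p under 0.05.

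The 3 CELF6-OE libraries did not differ from Control to the same degree. Relative to the Control mean of log2 CPM (the counts scaled to a common library size), the CELF6-OE replicates 1 to 3 stood at -2.2, -2.38 and -1.61 for ISG20, and SLFN5 stood at -0.8, -0.86 and -0.62. SLFN13 stood at -0.59, -0.48 and -0.01, and PNPT1 at -0.46, -0.52 and -0.19. Replicate 3 was the nearest to Control, or the highest, for 7 of the 7 members tested. Replicate 3 was also the highest of the CELF6-OE libraries for 65.9% of the 1820 genes called lower and for 32.5% of all genes tested, and it was the library with the lowest CELF6 level. The part of the CELF6 level in this was not tested. Among the Control libraries, replicate 1 was the highest for 6 of the 7 members, with ISG20 as the exception, and for 38.5% of all genes tested.

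**Figure D3:**
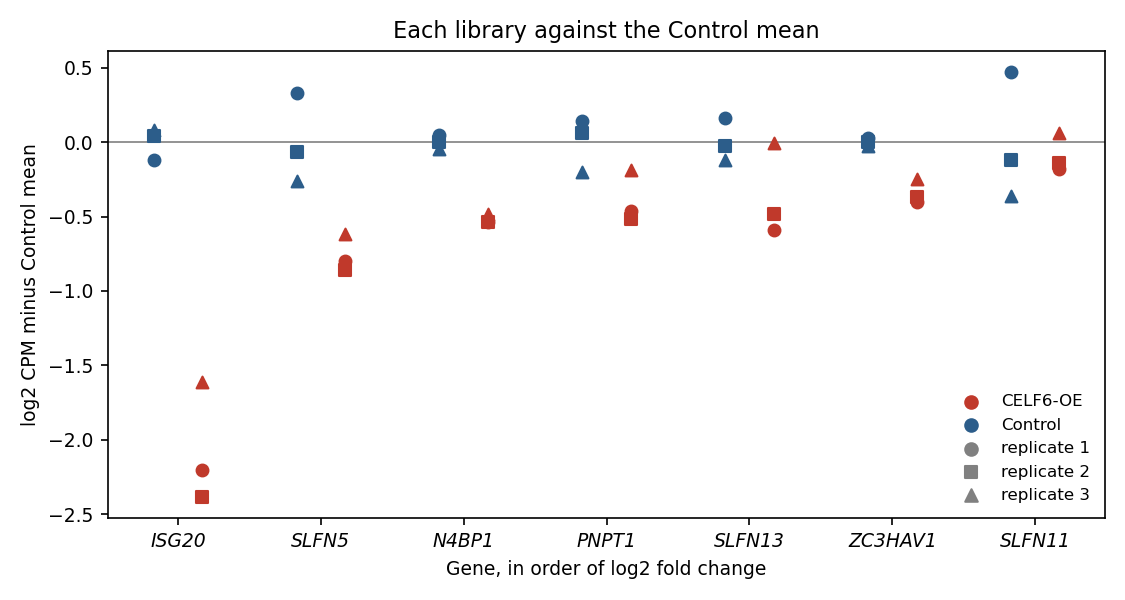
Log2 CPM of the 7 tested members in each library minus the mean of the 3 Control libraries, with genes in order of log2 fold change. Marker shapes are replicates 1 to 3. The triangle of CELF6-OE replicate 3 is the highest of its group for every gene shown, and Control replicate 1 spreads up to 0.47 above the Control mean, for SLFN11.

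For each member called, the 2 genes with the most similar values over the 6 libraries were looked up among the other 13193 genes with a mean of at least 1 CPM. Likeness was the root mean square difference of log2 CPM after centring each gene on its Control mean. ISG20 was nearest to OASL and APOL1, which are interferon-induced genes, at a difference of 0.068 and 0.069, and their log2 fold changes were -2.11 and -2.07. SLFN5 was nearest to FN1, the gene of fibronectin, at 0.034, and to PI4K2B, a lipid kinase gene, at 0.06. N4BP1 was nearest to MYL12A, a myosin light chain gene, at 0.022 and to BTG1, an antiproliferative gene, at 0.031. ZC3HAV1 was nearest to PRAME at 0.025 and to CASP8, which encodes caspase-8, at 0.027, and PNPT1 was nearest to PLD1, a phospholipase gene, at 0.048 and to RBM43, an RNA-binding protein gene, at 0.05. None of the members was among these nearest genes. With 13193 genes compared and only the 2 nearest kept, this does not show how alike the members were.

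The 7 RNA decay lists and the 3 other Schlafen genes together hold 83 genes, of which 79 were tested, 6 were lower and 5 were higher. These are 7.59% and 6.33% of the genes tested in the lists, beside 11.5% and 6.47% of all genes tested. Their median log2 fold change was 0.1, beside 0.0115 for all genes. The list for the RNA exosome, the tail-end RNA-degrading complex, and its Ski cofactor held 17 genes, among them the related DIS3L2 and SKIV2L2. Of these 17, 0 were lower and 2 were higher, namely EXOSC3 with a log2 fold change of 0.22 and DIS3L with 0.21. Of the 10 genes of nonsense-mediated decay 0 were called, with a median of 0.16. Of the 23 genes for decapping, deadenylation and decay from the cap end, 4 were lower and 2 were higher. DCP1B and DCP1A, both decapping cofactors, fell by 0.54 and 0.33, XRN1, the cytoplasmic exonuclease that follows decapping, fell by 0.59, and PATL1, a decapping activator, fell by 0.2 on the log2 scale. DDX6, a helicase of the same complexes, rose by 0.29 and CNOT7, a deadenylase, rose by 0.24. DCP1B had the smallest adjusted p of these 6 genes, 0.00613, and PATL1 the largest, 0.0483, in edgeR's quasi-likelihood test. The counts depended on single libraries. Without Control replicate 1, 8 genes of the lists were lower and 19 higher, without Control replicate 3, 10 were higher, and without CELF6-OE replicate 1, 2 were lower and 1 higher. Without CELF6-OE replicate 2 and without Control replicate 2, 2 were lower and 0 higher in each case, and without CELF6-OE replicate 3, 1 was higher.

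**Figure D4:**
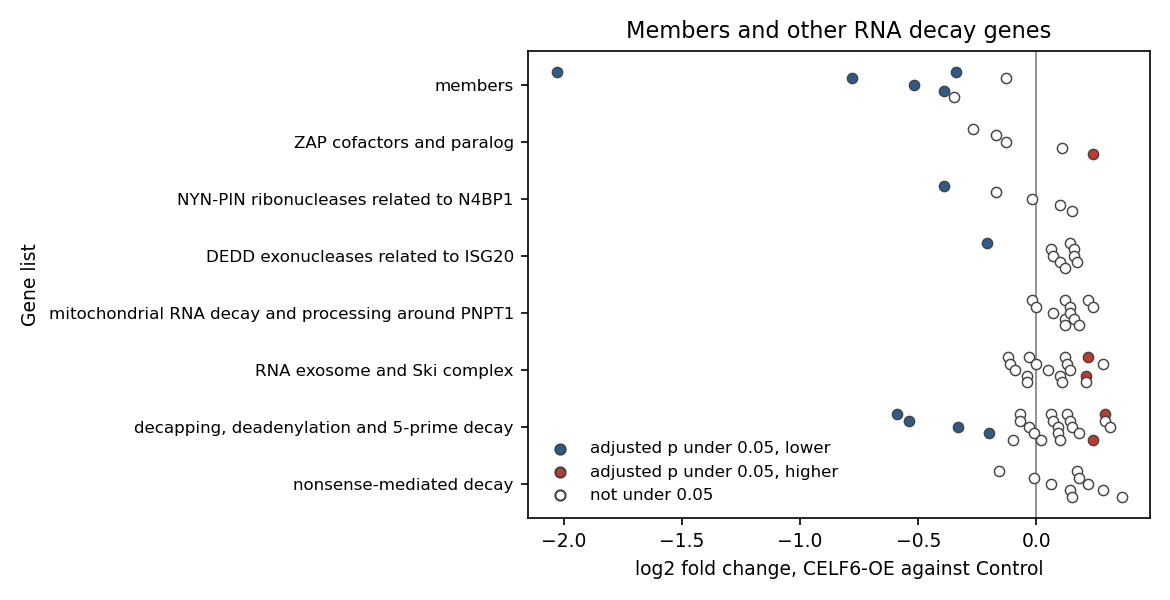
Log2 fold change of the 7 tested members and of the genes of 7 RNA decay lists, 1 row per list and 1 point per gene. Blue points were called lower and red points higher at an adjusted p under 0.05 in edgeR's test, and open points were not called. List genes lie between -0.59 and 0.36, whereas ISG20 lies at -2.03 and SLFN5 at -0.78.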

How the data were processed

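RNA-seq libraries of 3 CELF6-OE and 3 Control cultures were analysed, grouped by their sample titles. Reads were trimmed by the authors (FASTX-Toolkit) and mapped with TopHat2 onto GRCh38, keeping reads with a unique location. The authors deposited whole-number counts per gene without normalization, and FPKM values computed from the same reads. The paper describes the libraries as directional. Which tool, strand setting and annotation the counting used is not given in the sources used here, so antisense or overlapping reads may be included. Both tables were used in full.

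Counts were scaled by TMM, and the 15847 genes kept by filterByExpr (minimum count 10) were tested with glmQLFit and glmQLFTest in edgeR 4.0.16 (R 4.3.3), with a prior count of 0.125 and Benjamini-Hochberg adjustment. A call means an adjusted p under 0.05. Standard errors are the log2 fold change over the square root of F. Without the filter the prior degrees of freedom were infinite, against 7.15 with it. Alternatives used limma 3.58.1 and DESeq2 1.42.0. The procedure was tested on simulated counts. No libraries were duplicates, since the chi-square per degree of freedom within groups was at least 7.67. The members and gene lists were chosen with earlier results of these data known. Genes named were the members, CELF6, called or counted genes of the lists, and the 2 genes nearest to each called member.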

Additional observations from a re-analysis of the deposited data

How the results depend on the processing

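Over 217 values recomputed under the alternatives, 178 kept their direction and their side of the threshold or stayed within 1.5 times the count. ISG20, SLFN5, ZC3HAV1 and N4BP1 were each called in 18 of the 18 alternatives that kept the call rule of an adjusted p under 0.05. Their log2 fold changes ran from -2.3 to -1.88, -0.91 to -0.48, -0.39 to -0.29 and -0.55 to -0.38, in this order. Among the 18, the prior count of 2 affects the reported log2 fold change only. It repeats the adjusted p of the main fit and could not change a call. PNPT1 was called in 12 of 18. Its call was lost with library size only (-0.36, adjusted p 0.0547) and on FPKM with a pseudocount of 1 or 0.1 (-0.36 in each, adjusted p 0.0742 and 0.0704), and leaving out 1 library gave -0.5 to -0.33 (edgeR and limma tests). SLFN13 ranged from -0.55 to -0.24 and SLFN11 from -0.29 to 0.14 with 1 library left out, the highest for SLFN11 being without Control replicate 1, where the direction reversed. The count of members called was 4 to 6 with 1 library left out. With a fold change of at least 1.5 added, it was 2 (ISG20 and SLFN5) at adjusted p under 0.05 or p under 0.01. Over all genes tested, 922 were then lower and 214 higher at the adjusted p, or 936 and 216 at p under 0.01. With 1 library left out, 1020 to 2371 genes were lower and 274 to 1911 higher, and without Control replicate 1 both counts were the highest. For the RNA decay lists, 2 genes were lower with library size only, 3 were lower and 9 higher on log2(FPKM + 1), 3 lower and 8 higher on log2(FPKM + 0.1), and 3 higher in DESeq2. Leaving out 1 library gave 2 to 8 lower and 0 to 19 higher. With the replicate number as a block, 3 were lower and 1 higher, 1570 genes in all were lower and 720 higher, and the 5 members were still called. The correlation of deviations between same-numbered libraries was -0.01, -0.02 and -0.07 for numbers 1 to 3. No library correlated best with its own number. No pairing by number was visible in these values, which cannot show whether same-numbered cultures were prepared together. The cause of these changes was not tested. Depth limits SLFN12 and the other Schlafen genes with few counts.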
